A study of Homo sapiens with 12 samples.

Results

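The genes described here are the members of 14 families of developmental transcription factors: the homeobox proteins HOX, DLX, IRX, LHX, MSX, PAX and sine oculis (SIX2 and its relatives), the forkhead (FOX) proteins, the SOX proteins with an HMG box, the T-box (TBX) proteins, the TEA-domain (TEAD) proteins, the zinc-finger KLF and GATA proteins, and the AP-2 (TFAP2) proteins. They were picked by gene symbol alone, and 53 of the 4988 genes in the deposited mRNA table carried such a symbol. The study compared tumours grown as xenografts from Hep3B, an established line of human hepatocellular carcinoma, between a group labelled Bufotalin and a group labelled Control. Bufotalin is a steroid of the bufadienolide class from toad skin and venom, and it acts as a cardiac glycoside. Each group had 3 total RNA libraries and 3 small RNA libraries, and the same treatment labels apply to both kinds. The sources used here give no dose, duration or host strain, and do not tell whether each library stands for its own animal, so p-values rest on variation that may be purely technical. By its name the mRNA table holds only genes found different on these same libraries, so neither a place in it nor a pass in a test on it is independent evidence. Values are FPKM, that is fragments scaled by gene length and library size, so levels of different genes can be set beside each other. Coordinates are on GRCh38 as the authors' table gives them.

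Transcription factors of these families bind short DNA motifs through one conserved domain per family and switch batteries of target genes during development. The HOX genes lie in 4 clusters, HOXA to HOXD, and their order along the cluster follows their order of use along the body axis, with high numbers used towards the tail. Relatives with the same number in different clusters are called paralogues and bind very similar DNA. In liver, forkhead and GATA factors open hepatic genes to other regulators, TEAD factors carry the output of the Hippo growth pathway, and KLF factors respond quickly to stress and growth signals.

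Of the 53 members, 33 had a higher mean in bufotalin tumours and 20 a lower one. In 30 members every bufotalin library lay above every control library, and in 20 below. Of all 4988 genes 40.7% were apart in this way upwards, 51.7% downwards and 92.4% in either direction. The groups overlapped for HOXA9, FOXM1 and SOX6. The test was limma on log2(FPKM + 1) with Benjamini-Hochberg adjustment over the 4273 genes that averaged 0.5 FPKM or more, among them 42 members. In bufotalin tumours 27 of these 42 members rose and 12 fell, that is 64.3% and 28.6% of the members tested. After quantile normalization 26 members rose and 5 fell, so that the share of rises among the member calls was 83.9% in place of 69.2%. Among the calls of all genes that share was 50.9% in place of 47.6%. With no minimum on the level 28 members rose and 18 fell, a share of 60.9%, beside 44.5% among the calls of all genes. Over all tested genes 44.3% rose and 48.8% fell, and 93.2% passed in one direction or the other, so that a member passing says little by itself. The median log2 fold change was 0.40 over the tested members and 0.13 over all tested genes. Scaling the libraries to equal medians moved these medians to 0.58 and 0.31 and turned no member round. All fold changes are bufotalin over control, and those on log2(FPKM + 1) understate the change of genes near or below 1 FPKM. In a bulk tumour, fewer cells of a type and less RNA per cell cannot be told apart.

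**Figure D1:**
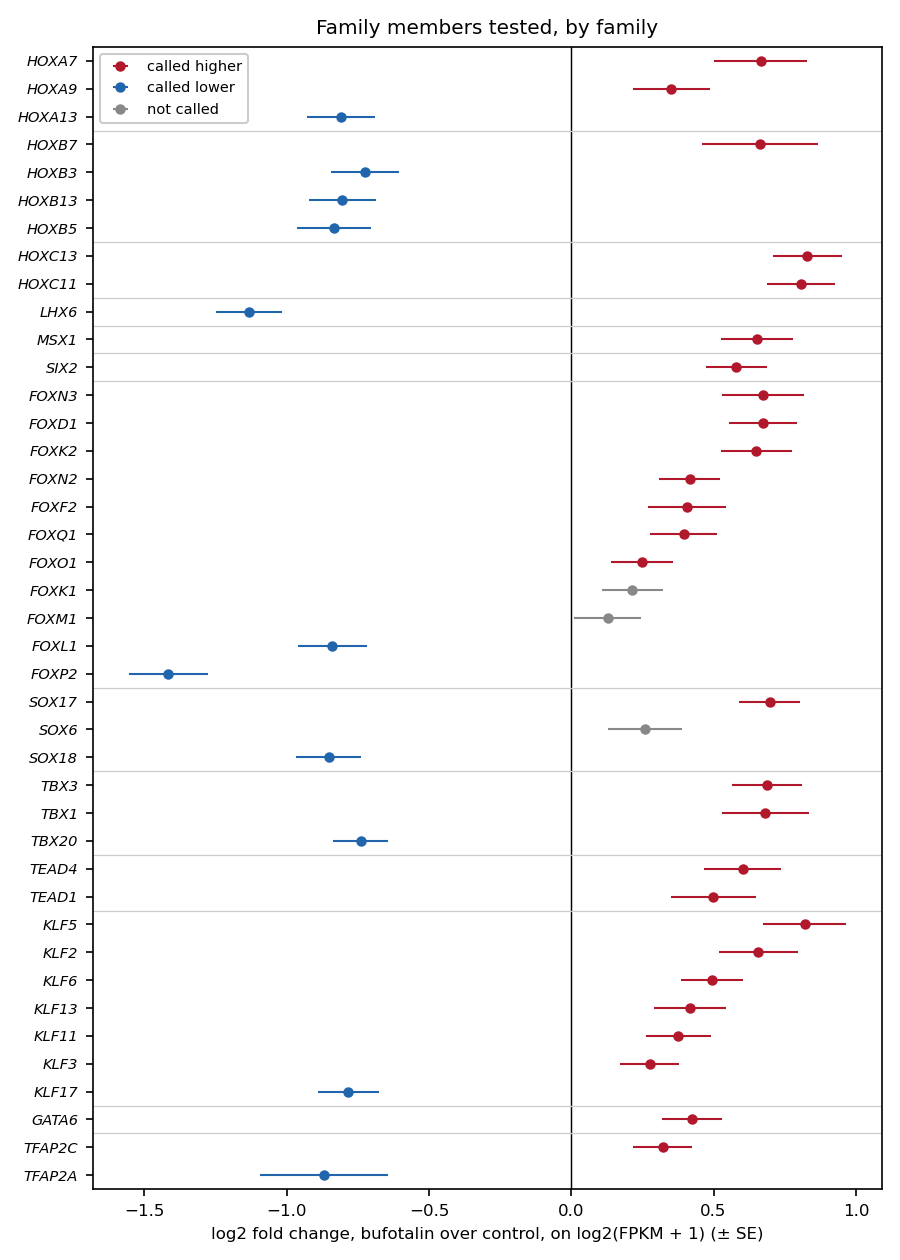
Log2 fold change of bufotalin over control on log2(FPKM + 1) for 41 of the 42 tested members, grouped by family from HOX at the top to TFAP2 at the bottom; points are fitted values from 3 libraries per group, bars are SE, and colour gives the call. The HOX genes fall on both sides of 0, while 6 of 7 tested KLF genes, both TEAD genes and 9 of 11 tested FOX genes lie above 0.

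Rises were small and falls were large. Only 1 of the 27 members that rose, KLF2, at least doubled its mean FPKM, against 11 of the 12 members that fell, which at least halved. Over all tested genes, 439 of the 1894 that rose at least doubled, and 1629 of the 2087 that fell at least halved. These were 10.3% and 38.1% of the 4273 tested genes, beside 1 and 11 of the 42 tested members. Level went with direction: of the 26 members with a mean of 5 FPKM or more, 22 rose and 2 fell (TFAP2A and FOXL1), while of the 16 members between 0.5 and 5 FPKM, 5 rose and 10 fell. The same slant was seen over the whole table, where 54.1% of all genes at 5 FPKM or more rose and 37.7% fell, while between 0.5 and 5 FPKM 21.4% rose and 75.0% fell. The table itself was uneven for small changes. Among the 2999 genes at 5 FPKM or more, 763 had a log2 fold change between 0 and 0.5, and only 18 one between 0 and -0.5. All 15 members with a change under 0.5 in size were on the positive side. Whether the authors' selection shaped the direction of the members was not tested.

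**Figure D2:**
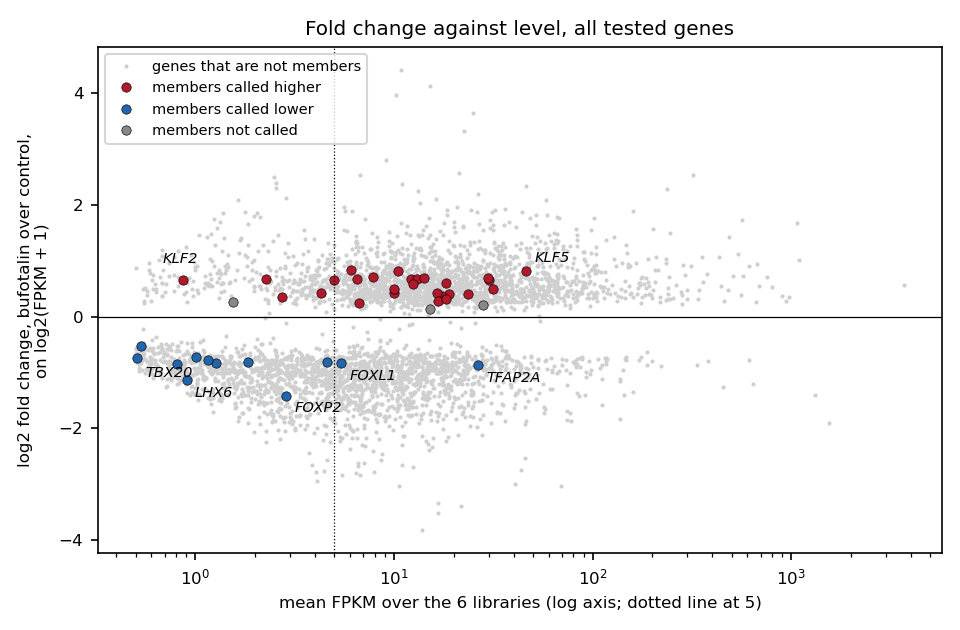
Log2 fold change on log2(FPKM + 1) against mean FPKM over the 6 total RNA libraries (log axis) for all 4273 tested genes, with the members coloured by call and the others in grey. Members that fell cluster below 5 FPKM, members that rose mostly lie above it, and the band just below 0 is nearly empty for members and other genes alike.

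The HOX genes split within each cluster. From HOXA, HOXB and HOXC 11 genes were in the table and none from HOXD. Of the 10 tested, 5 rose and 5 fell, where 44.3% of all tested genes rose and 48.8% fell. HOXC13 (chromosome 12, 53938831 to 53946544), a regulator of hair and nail keratin genes, had 9.22, 7.23 and 7.81 FPKM in bufotalin tumours, against 4.03, 4.47 and 3.798 FPKM in control tumours (log2 fold change 0.83, SE 0.12, limma adjusted p = 0.000155). HOXC11 (chromosome 12, 53973126 to 53977643), of hindlimb and kidney patterning, had 15.3, 12.95 and 12.8 FPKM in bufotalin tumours and 7.27, 8.17 and 6.71 FPKM in control tumours (0.81, SE 0.12). All bufotalin libraries lay above all control libraries for both genes. HOXC8 (chromosome 12, 54008985 to 54012769), which patterns the thorax, lies on the far side of HOXC11 and had only 0.0671, 0.210 and 0.284 FPKM in bufotalin tumours, against 0.862, 0.296 and 0.886 FPKM in control tumours. Its mean was under the minimum for the test, and limma called it lower when no minimum was set (adjusted p = 0.014).

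In the HOXA cluster the middle genes and the last gene parted. HOXA7 (chromosome 7, 27153716 to 27157936) had 2.58, 2.66 and 3.73 FPKM in bufotalin tumours, against 1.25, 2.07 and 1.25 FPKM in control tumours (0.67, SE 0.16, limma adjusted p = 0.00345). HOXA9 (chromosome 7, 27162438 to 27175180), known for its part in acute leukaemia, had 2.86, 3.30 and 3.36 FPKM in bufotalin tumours and 2.09, 1.90 and 2.89 FPKM in control tumours. The groups overlapped at 1 control library, and the HOXA9 call (adjusted p = 0.0316) was lost without bufotalin replicate 2 or 3 or control replicate 1 or 2. HOXA13 (chromosome 7, 27193503 to 27200091), a marker of the most posterior positions that is often raised in liver cancer, had 3.01, 2.97 and 3.22 FPKM in bufotalin tumours, against 6.73, 6.47 and 5.27 FPKM in control tumours (-0.81, SE 0.12, adjusted p = 0.000158). HOXA13 was lower in every bufotalin library than in any control library.

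HOXB genes fell except for HOXB7. HOXB7 (chromosome 17, 48607227 to 48633572), a growth-promoting factor in several cancers, had 7.31, 9.09 and 7.96 FPKM in bufotalin tumours, against 4.38, 6.97 and 3.40 FPKM in control tumours (0.66, SE 0.20, limma adjusted p = 0.0124). HOXB5 (chromosome 17, 48591257 to 48593961), the next HOXB gene of the table, 13266 bases away, had 0.710, 0.419 and 0.782 FPKM in bufotalin tumours and 2.07, 2.13 and 1.55 FPKM in control tumours (-0.83, SE 0.13). The pair thus moved in opposite directions. HOXB3 (chromosome 17, 48548870 to 48604992), of the hindbrain and blood progenitors, had 0.420, 0.708 and 0.421 FPKM in bufotalin tumours and 1.505, 1.73 and 1.27 FPKM in control tumours (-0.72, SE 0.12). HOXB13 (chromosome 17, 48724763 to 48729178), of the prostate and tail end, had 1.06, 0.890 and 1.26 FPKM in bufotalin tumours and 2.93, 2.34 and 2.58 FPKM in control tumours (-0.81, SE 0.12). The deposited span of HOXB3 covers HOXB5, that of HOXB7 covers HOXB8 and HOXB9 of the RefSeq annotation, and that of HOXA9 covers HOXA10. The sources used here do not tell whether strand was used in counting, so the values of these overlapping genes are uncertain. Quantile normalization ended all 5 calls of falling HOX genes: HOXA13 then had -0.28, HOXB5 -0.09, HOXB13 -0.07 and HOXB3 -0.02, while all 5 rising HOX genes were still called.

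**Figure D3:**
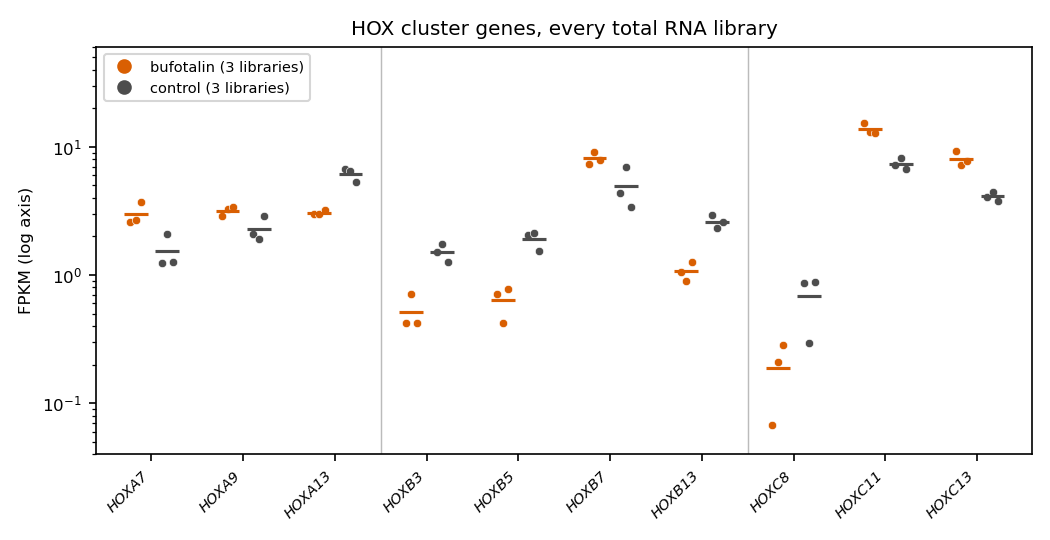
FPKM (log axis) of 10 HOX genes of the table in every total RNA library, bufotalin left of control for each gene, with points for libraries and lines for group means; grey lines part the HOXA, HOXB and HOXC clusters. HOXA7, HOXA9, HOXB7, HOXC11 and HOXC13 have the higher bufotalin means, and HOXA13, HOXB3, HOXB5, HOXB13 and HOXC8 the lower ones.

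The 3 genes of paralogue group 13 that were in the table went opposite ways, and no HOXD gene was among them. The FPKM sum of HOXA13, HOXB13 and HOXC13 was 13.3, 11.1 and 12.3 in bufotalin tumours, against 13.7, 13.3 and 11.6 in control tumours, and these ranges overlapped. HOXC13 made up 69.4%, 65.2% and 63.6% of that sum in bufotalin tumours, and 29.5%, 33.7% and 32.6% of it in control tumours. Such a share is taken within a library and so does not depend on scaling by depth. The calls of HOXA13 and HOXB13 were lost under quantile normalization, which was not applied to the share. HOXC13 was 2.64 ± 0.366 times as abundant as HOXA13 in bufotalin tumours and 0.670 ± 0.063 times in control tumours (SD, n = 3 each).

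The promoters of 3 HOXA genes are printed because these neighbours moved in different directions. Each runs from 250 bases before to 50 bases after the RefSeq transcription start (GRCh38.p14), 5′ to 3′ on the minus strand of chromosome 7. Capitals mark GC boxes (GGGCGG, or CCGCCC on the other strand), the motif of SP and many KLF factors, and the TATA box (TATAAA, or TTTATA on the other strand).
HOXA7 (higher), chr7:27156626-27156925: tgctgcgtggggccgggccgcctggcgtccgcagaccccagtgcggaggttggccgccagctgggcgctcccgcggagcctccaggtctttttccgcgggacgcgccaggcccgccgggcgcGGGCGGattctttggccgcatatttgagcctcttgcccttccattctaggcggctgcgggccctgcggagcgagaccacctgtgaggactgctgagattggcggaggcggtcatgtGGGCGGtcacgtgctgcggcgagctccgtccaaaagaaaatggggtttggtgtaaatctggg
HOXA9 (higher), chr7:27165488-27165787: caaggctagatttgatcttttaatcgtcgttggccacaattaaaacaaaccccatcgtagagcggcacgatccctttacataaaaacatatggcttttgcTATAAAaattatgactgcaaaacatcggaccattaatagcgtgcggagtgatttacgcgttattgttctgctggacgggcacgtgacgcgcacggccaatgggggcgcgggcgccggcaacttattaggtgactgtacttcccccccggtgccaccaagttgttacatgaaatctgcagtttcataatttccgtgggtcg
HOXA13 (lower), chr7:27200042-27200341: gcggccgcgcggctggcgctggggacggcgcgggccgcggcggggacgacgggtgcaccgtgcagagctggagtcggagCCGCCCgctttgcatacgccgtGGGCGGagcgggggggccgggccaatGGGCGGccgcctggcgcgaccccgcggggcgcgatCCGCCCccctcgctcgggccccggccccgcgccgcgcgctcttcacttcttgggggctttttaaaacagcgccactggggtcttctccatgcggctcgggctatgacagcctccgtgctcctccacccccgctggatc
The HOXA13 window held 4 GC boxes at a GC content of 76.3%, the HOXA7 window 2 at 68.0%, and the HOXA9 window none but 1 TATA box at 48.0%. A promoter was on hand for 32 of the 53 members. At least 1 GC box was found in 13 of the 17 members that rose, in 4 of the 6 that fell, and in 58.5% of all 15843 protein-coding promoters of the same length. A TATA box was found in 2 of the 17 and 1 of the 6, against 9.63% of protein-coding promoters. These are letter matches and show no binding.

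HOX proteins bind DNA together with TALE homeodomain cofactors. Of 11 listed TALE genes, 3 were in the mRNA table, and all 3 fell, where 48.8% of tested genes fell. PBX2, a direct HOX partner, had 3.95, 3.98 and 4.15 FPKM in bufotalin tumours, against 8.28, 8.26 and 12.9 FPKM in control tumours (-1.08, SE 0.16, limma adjusted p = 0.000176). MEIS3 had 3.10, 2.69 and 2.48 FPKM in bufotalin tumours and 8.48, 8.93 and 7.38 FPKM in control tumours (-1.30, SE 0.12). For both of them no bufotalin library reached a control library. From 19 Polycomb and trithorax genes, which keep HOX clusters silent or active, 2 were listed: KDM6B, a demethylase of the Polycomb mark, rose (8.82 ± 1.002 FPKM in bufotalin and 4.82 ± 0.717 FPKM in control tumours, SD, n = 3 each), and CBX2 had 0.17 without passing.

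The small RNA libraries gave a second readout of the HOX clusters, since several miRNA genes sit between or inside HOX genes. MIR10A lies within the span of HOXB3, MIR10B 1138 bases from HOXD4, MIR196A1 between the HOXB genes, MIR196A2 1459 bases from HOXC10, MIR196B 1042 bases from HOXA10, and MIR615 within the spans of HOXC4 and HOXC5 (RefSeq, GRCh38.p14). The mature sequences are printed with the seed, bases 2 to 8, in capitals, to show which of them share targets.
miR-196a-5p (chromosomes 12 and 17): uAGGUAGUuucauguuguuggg
miR-196b-5p (chromosome 7): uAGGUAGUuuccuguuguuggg
miR-10a-5p (chromosome 17): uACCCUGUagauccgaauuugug
miR-615-3p (chromosome 12): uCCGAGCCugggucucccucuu
miR-615-5p (chromosome 12): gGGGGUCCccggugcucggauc
Both miR-196 sequences share the seed AGGUAGU, and this family is known to cleave or repress HOXB8 and other HOX transcripts. The remaining 3 differ in seed from these and from each other. No sequence of miR-10b-5p, which was also tested, was on hand, so its seed was not compared.

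Of 11 mature miRNAs from the HOX clusters, 9 were abundant enough to test, and none passed, where edgeR called 5.66% of all 477 tested miRNAs, 3.56% of them lower in bufotalin. All 9 had log2 fold changes below 0, as had 52.8% of tested miRNAs, and 3 had an unadjusted p under 0.05, as had 26.0%. DESeq2 called none of the 9 either, with 2 at an unadjusted p under 0.05. CPM here is the count scaled by the library total. miR-196b-5p had 278, 159 and 147 CPM in bufotalin tumours, against 339, 402 and 453 CPM in control tumours, with no overlap (-0.95, SE 0.34, edgeR adjusted p = 0.107). Its relative miR-196a-5p had 1346, 862 and 839.6 CPM in bufotalin tumours and 1451, 1903 and 1093 CPM in control tumours, and these overlapped. The most abundant, miR-10a-5p, had 7536, 6106 and 8812 CPM in bufotalin tumours and 10918, 13529 and 10941 CPM in control tumours (-0.48, SE 0.30). Its fold change and that of its host span HOXB3 both lay below 0. Other pairs went opposite ways. The deposited span of HOXA9, which rose (0.35), covers MIR196B, and miR-196b-5p had -0.95. The deposited span of HOXB7, which rose (0.66), covers MIR196A1, and miR-196a-5p had -0.38. miR-615-3p had 463, 384 and 336 CPM in bufotalin tumours and 932, 480.1 and 609.5 CPM in control tumours (-0.67, SE 0.34). The other arm, miR-615-5p, was counted 6, 3 and 5 times in bufotalin libraries and 21, 13 and 13 times in control libraries (-1.51, adjusted p = 0.118). miR-10a-3p had -0.67 and miR-196a-3p -0.25. For miR-10b-5p and miR-10b-3p the values were -0.05 and -0.02, each within its SE of 0. Below the filter, miR-196a-1-3p was counted 5, 8 and 1 times in bufotalin libraries and 12, 10 and 13 times in control libraries, and miR-196b-3p at most 4 times in any library.

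Other homeobox genes were few. MSX1 (chromosome 4, 4859665 to 4863936), a target of BMP signals in limb and face, had 7.32, 5.96 and 5.63 FPKM in bufotalin tumours, against 3.53, 3.35 and 4.01 FPKM in control tumours (0.65, SE 0.13, limma adjusted p = 0.00086). SIX2 (chromosome 2, 45005182 to 45009452), which keeps kidney progenitors undifferentiated, had 16.4, 15.1 and 14.1 FPKM in bufotalin tumours and 9.97, 10.1 and 9.34 FPKM in control tumours (0.58, SE 0.11, adjusted p = 0.000651). Both genes were higher in every bufotalin library. LHX6 (chromosome 9, 122202577 to 122229626), a LIM-homeobox factor of cortical interneurons, had 0.268, 0.121 and 0.179 FPKM in bufotalin tumours, against 1.62, 1.31 and 1.92 FPKM in control tumours, a mean 8.54-fold lower in bufotalin and the widest ratio among tested members (-1.13 on log2(FPKM + 1), SE 0.12, adjusted p = 1.82e-05). LHX1, of kidney and head development, was listed at 0 in all 3 bufotalin libraries and had 0.234, 0.178 and 0.0213 FPKM in control tumours. LHX3, of pituitary development, went the other way, with 0.0159, 0.0350 and 0.0199 FPKM in bufotalin tumours and 0 listed in all control libraries. DLX2 had 0.201, 0.237 and 0.111 FPKM in bufotalin tumours and 0.0502, 0 and 0 FPKM in control tumours, and so lay above control. Its relative DLX3 lay below control, with 0, 0 and 0.0229 FPKM in bufotalin tumours and 0.0818, 0.0575 and 0.129 FPKM in control tumours. Both act in face and skin development. IRX4, a ventricle-specific heart factor, was listed at 0 in all bufotalin libraries and at 0.0695, 0.0237 and 0.0426 FPKM in control tumours. These 5 genes were under the minimum for the test, and at such levels an FPKM of 0 may only mean too few reads. No PAX gene was in the table.

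Cofactors of homeobox, GATA and AP-2 proteins moved both ways, with 3 of 7 tested rising and 3 falling out of 22 listed. Of all tested genes 44.3% rose and 48.8% fell. CITED2, a CBP/p300 partner that activates AP-2 targets, rose to 31.4, 30.7 and 29.8 FPKM in bufotalin tumours, against 10.1, 10.4 and 7.97 FPKM in control tumours (1.60, SE 0.12, limma adjusted p = 4.12e-06). Its relative CITED4 rose too, to 73.9 ± 12.7 FPKM in bufotalin tumours, against 31.7 ± 5.95 FPKM in control tumours. SSBP3, which stabilises the complex of LIM-homeobox proteins with LDB1, fell to 3.28, 2.44 and 3.76 FPKM in bufotalin tumours, against 13.4, 13.5 and 11.8 FPKM in control tumours (-1.75, SE 0.14). SSBP2, of the same complex, fell as well (-1.40). EYA3, a phosphatase and partner of sine oculis proteins, rose (0.56). LMO4 fell (-1.07), but that call was lost without any one of the bufotalin libraries and under quantile normalization.

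Forkhead genes formed the largest family, with 12 listed and 11 tested, of which 7 rose, 2 fell and 2 did not pass. Of all tested genes 44.3% rose, and of those at 5 FPKM or more 54.1% rose. FOXK2 (chromosome 17, 82519713 to 82648571), a repressor of autophagy genes that holds the highest FPKM of the family, had 36.6, 34.6 and 39.5 FPKM in bufotalin tumours, against 23.6, 20.1 and 26.1 FPKM in control tumours (0.65, SE 0.12, limma adjusted p = 0.000791). FOXN3 (chromosome 14, 89124871 to 89619149), a checkpoint-linked repressor, had 13.7, 15.4 and 20.1 FPKM in bufotalin tumours and 9.92, 9.31 and 10.1 FPKM in control tumours (0.67, SE 0.14). FOXD1, of kidney stroma, had 14.6, 17.3 and 13.8 FPKM in bufotalin tumours and 9.78, 9.13 and 8.53 FPKM in control tumours (0.67, SE 0.12). In these 3 genes no bufotalin library overlapped with control.

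Smaller rises were seen for FOXN2, FOXQ1, FOXF2 and FOXO1. FOXN2 had 11.5, 11.5 and 11.8 FPKM in bufotalin tumours and 8.68, 7.59 and 9.06 FPKM in control tumours (0.42, SE 0.11). FOXQ1 had 22.7, 20.7 and 21.4 FPKM in bufotalin tumours and 17.7, 16.9 and 14.1 FPKM in control tumours (0.40, SE 0.12). FOXF2 had 31.01, 24.1 and 26.1 FPKM in bufotalin tumours and 23.3, 19.3 and 17.98 FPKM in control tumours (0.41, SE 0.14). FOXQ1, an epithelial factor linked to invasion, and FOXF2, of gut and liver mesenchyme, lie 74818 bases apart on chromosome 6 (FOXQ1 at 1312098 to 1314758, FOXF2 at 1389576 to 1395603). The FOXF2 call was lost under quantile normalization and without bufotalin replicate 1 or control replicate 2 or 3. FOXO1, the insulin-restrained activator of gluconeogenic and stress genes, had 6.81, 7.19 and 7.94 FPKM in bufotalin tumours and 5.80, 5.76 and 6.397 FPKM in control tumours. It sat at the threshold (0.25, limma adjusted p = 0.049975), and its call was lost in 7 of 13 other settings, among them bufotalin replicate 2 or 3 or control replicate 1 or 2 left out and another pseudocount. FOXM1, which drives mitotic genes, had 16.9, 14.1 and 16.96 FPKM in bufotalin tumours and 14.8, 13.5 and 15.3 FPKM in control tumours (0.13, SE 0.12, adjusted p = 0.305), and these overlapped. FOXK1, the close relative of FOXK2, had 28.9, 30.7 and 31.2 FPKM in bufotalin tumours and 25.3, 24.3 and 28.2 FPKM in control tumours (0.21, limma adjusted p = 0.078). It was called when control replicate 3 was left out (0.27) or libraries were scaled to equal medians (0.40).

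FOXP2 and FOXL1 fell. FOXP2 (chromosome 7, 114086256 to 114693772), the forkhead repressor known from speech circuits, had 1.08, 0.991 and 1.2004 FPKM in bufotalin tumours, against 3.77, 5.70 and 4.41 FPKM in control tumours, 4.24-fold lower in bufotalin by the means (-1.42, SE 0.14, limma adjusted p = 1.50e-05). The table of noncoding transcripts held 1 transcript of a member gene among 536, and it belonged to FOXP2 (ENST00000634664, chromosome 7, 114661792 to 114691914). It was listed at 0.00686, 0 and 0 FPKM in bufotalin tumours, against 0.366, 1.11 and 0.00579 FPKM in control tumours. Since 1 control library was as low as the bufotalin ones, it did not pass (limma on log2(FPKM + 0.1), adjusted p = 0.0876), where 73.3% of tested transcripts passed, and it was called without control replicate 3 (-2.88). FOXL1 (chromosome 16, 86576368 to 86582160), a marker of hepatic progenitor cells and gut mesenchyme, had 4.04, 3.28 and 3.48 FPKM in bufotalin tumours and 7.57, 6.37 and 7.78 FPKM in control tumours (-0.84, SE 0.12, adjusted p = 0.000143). FOXD4L4 had at most 0.159 FPKM in any library, and as it belongs to a set of near-identical copies its value is uncertain.

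SOX genes gave one rise and one fall. SOX17 (chromosome 8, 54457935 to 54460892), which specifies endoderm and also arterial endothelium, had 10.3, 10.3 and 9.06 FPKM in bufotalin tumours, against 5.39, 5.93 and 5.83 FPKM in control tumours (0.70, SE 0.11, limma adjusted p = 0.000205). SOX18 (chromosome 20, 64047582 to 64049639), of the same SOXF subgroup and used in lymphatic vessels, had 0.123, 0.338 and 0.406 FPKM in bufotalin tumours, against 1.31, 1.45 and 1.202 FPKM in control tumours (-0.85, SE 0.11, adjusted p = 8.89e-05). The ratio of SOX17 to SOX18 was 83.7, 30.5 and 22.3 in bufotalin libraries and 4.12, 4.09 and 4.85 in control libraries, without overlap. Under quantile normalization SOX18 had -0.23 and was not called. SOX6 (chromosome 11, 15966449 to 16755892), of muscle and red cell development, had 1.67, 1.75 and 1.89 FPKM in bufotalin tumours and 1.08, 1.15 and 1.75 FPKM in control tumours (0.26, adjusted p = 0.0777), and 1 control library reached into the bufotalin range. The long SOX6 span overlaps C11orf58, a gene at a mean of 44.0 FPKM, so reads counted for SOX6 may not all be its own. Without control replicate 3 SOX6 was called (0.39), as it was after either rescaling. Both SOX17 and SOX18 also stand in a list of 9 endothelial markers. In that list CDH5 rose (0.943 ± 0.262 FPKM in bufotalin and 0.0657 ± 0.0512 FPKM in control tumours), and EGFL7 fell (8.45 ± 1.32 FPKM in bufotalin and 32.6 ± 0.845 FPKM in control tumours, SD, n = 3 each), so the 4 listed endothelial markers were split. Whether host vessels contribute to either gene was not tested.

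T-box genes with high levels rose and those with low levels were lower. TBX1 (chromosome 22, 19756703 to 19785157), of the pharyngeal arches, had 40.8, 34.9 and 34.7 FPKM in bufotalin tumours, against 25.99, 24.8 and 17.6 FPKM in control tumours (0.68, SE 0.15, limma adjusted p = 0.0022). TBX3 (chromosome 12, 114670255 to 114684175), a repressor that marks hepatoblasts and is a Wnt target in liver tumours, had 19.7, 15.1 and 18.7 FPKM in bufotalin tumours and 10.3, 10.9 and 10.7 FPKM in control tumours (0.69, SE 0.12). Its closest relative TBX2, also a repressor, was under the minimum for the test with 0.237, 0.110 and 0.204 FPKM in bufotalin tumours and 0.645, 0.387 and 0.699 FPKM in control tumours. TBX3 exceeded TBX2 by 104 ± 29.2 times in bufotalin tumours and by 19.8 ± 7.20 times in control tumours (SD, n = 3 each). TBX20 (chromosome 7, 35202430 to 35254147), of the heart, fell to 0.106, 0.0769 and 0.212 FPKM in bufotalin tumours, against 0.794, 0.930 and 0.940 FPKM in control tumours (-0.74, SE 0.10, adjusted p = 7.59e-05). The TBX1 span overlaps GNB1L, and that of FOXM1 overlaps RHNO1 and ITFG2, so their reads may not stand for these genes alone.

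GATA6 (chromosome 18, 22169392 to 22202528), which is needed for liver bud growth, had 5.11, 5.23 and 4.80 FPKM in bufotalin tumours, against 3.59, 3.58 and 3.35 FPKM in control tumours (0.42, SE 0.10, limma adjusted p = 0.0037). GATA3 (chromosome 10, 8045378 to 8075198), of T cells and trophoblast, was near the lower limit of the table, with 0.494, 0.0937 and 0.0804 FPKM in bufotalin tumours and 0, 0.0195 and 0 FPKM in control tumours. One bufotalin library held most of that signal. With no minimum GATA3 did not pass (adjusted p = 0.0581).

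**Figure D4:**
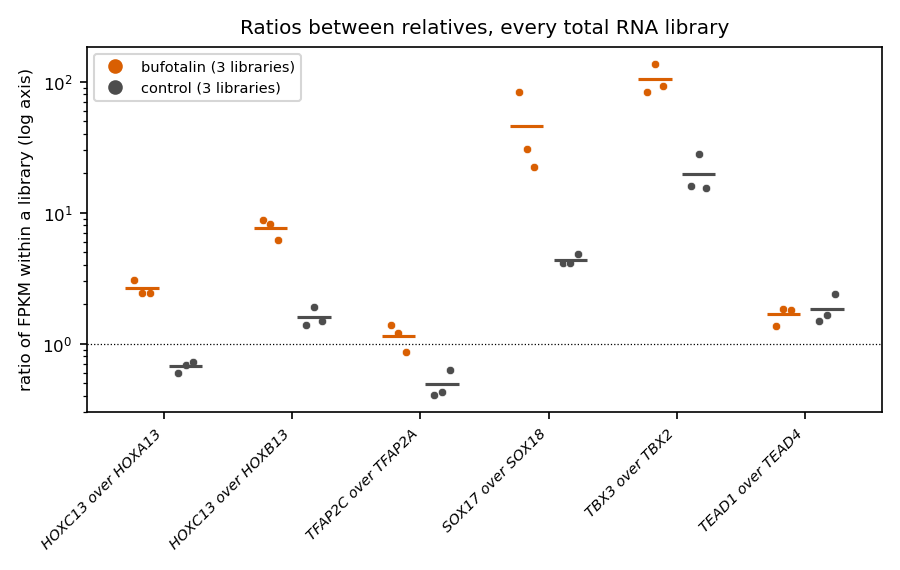
Ratio of FPKM between 2 relatives within the same library (log axis), bufotalin left of control for each pair, with points for libraries, lines for group means and a dotted line at 1. The bufotalin and control ratios are apart in 5 of the 6 pairs shown and overlap for TEAD1 over TEAD4.

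Both TEAD genes in the table rose, and so did most of the listed genes of the pathway that acts through them. TEAD1 (chromosome 11, 12674421 to 12944737) had 29.3, 39.1 and 42.9 FPKM in bufotalin tumours, against 24.5, 24.4 and 28.2 FPKM in control tumours (0.50, SE 0.15, limma adjusted p = 0.01). TEAD4 (chromosome 12, 2959330 to 3040676) had 21.7, 21.2 and 23.7 FPKM in bufotalin tumours and 16.6, 14.9 and 11.8 FPKM in control tumours (0.60, SE 0.14, adjusted p = 0.00216). TEAD proteins have no activating domain of their own and rely on YAP1 and WWTR1 (TAZ), which the Hippo kinases keep out of the nucleus. The ratio of TEAD1 to TEAD4 overlapped between the groups, with TEAD1 at 1.67 ± 0.275 times TEAD4 in bufotalin and 1.84 ± 0.491 times in control tumours (SD, n = 3 each). TEAD1 was not called under quantile normalization (0.33, adjusted p = 0.0582).

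Of 24 Hippo symbols, aliases included, 13 were in the table and 12 were tested, of which 11 rose and 1 fell, where 44.3% of all tested genes rose and 48.8% fell, and 54.1% of those at 5 FPKM or more rose. The summed level of the 13 was 353 to 395 FPKM in bufotalin tumours, against 176 to 194 FPKM in control tumours. The coactivator YAP1 had 74.98, 67.9 and 90.3 FPKM in bufotalin tumours, against 26.9, 45.1 and 21.2 FPKM in control tumours (1.36, SE 0.25, limma adjusted p = 0.00106), and the control libraries were spread more than 2-fold. WWTR1 rose less (0.29), and its call was lost under quantile normalization (0.02) and without bufotalin replicate 2 or 3 or control replicate 2. Among genes widely used as readouts of YAP and TEAD activity, ANKRD1 had 3.43, 3.29 and 3.34 FPKM in bufotalin tumours, against 0.248, 0.240 and 0.0913 FPKM in control tumours (1.87, SE 0.10, adjusted p = 1.34e-06). CCN2 (CTGF) had 15.4, 14.5 and 13.7 FPKM in bufotalin tumours and 4.28, 4.42 and 4.64 FPKM in control tumours (1.51, SE 0.10). CCN1 (CYR61) had 28.8, 26.8 and 28.6 FPKM in bufotalin tumours and 15.4, 13.6 and 13.3 FPKM in control tumours (0.95, SE 0.11). AMOTL2 (1.60), another such readout, and AJUBA (0.90), which inhibits LATS kinases, rose too, while AXL, a receptor kinase also used as a readout, fell (0.310, 0.194 and 0.235 FPKM in bufotalin and 0.969, 1.11 and 0.906 FPKM in control tumours). Genes that restrain the pathway rose alongside: the kinase LATS2 (21.9 ± 1.68 FPKM in bufotalin and 7.65 ± 0.396 FPKM in control tumours, SD, n = 3 each), the scaffold SAV1 (0.50), NF2 (0.42) and the TEAD competitor VGLL4 (1.09). The AXL call was lost under quantile normalization (-0.08).

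**Figure D5:**
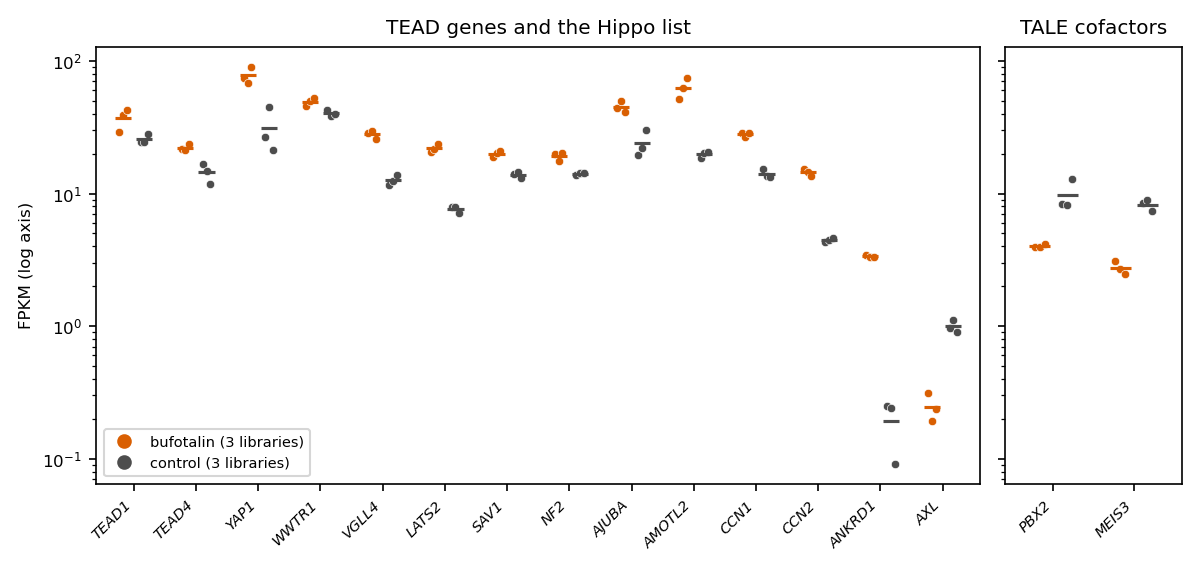
FPKM (log axis) in every total RNA library for the TEAD genes with 12 tested genes of the Hippo list, and for PBX2 and MEIS3, TALE cofactors of HOX proteins, bufotalin left of control, with points for libraries and lines for group means. All Hippo list genes but AXL have higher bufotalin means, and PBX2 and MEIS3 have lower ones.

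KLF genes mostly rose, with 6 higher and 1 lower among 7 tested of 9 listed. Of all tested genes 44.3% rose, and of those at 5 FPKM or more 54.1% rose. Between 0.5 and 5 FPKM 21.4% rose and 75.0% fell. KLF2 and KLF17 averaged under 5 FPKM, and the other tested KLF genes averaged more. KLF5 (chromosome 13, 73054976 to 73077541), a growth-promoting factor of epithelia and the most abundant of all 53 members at a mean of 46.1 FPKM, had 52.2, 57.4 and 67.9 FPKM in bufotalin tumours, against 33.3, 38.2 and 27.95 FPKM in control tumours (0.82, SE 0.15, limma adjusted p = 0.00051). KLF6, a tumour suppressor of liver, had 12.2, 10.6 and 12.8 FPKM in bufotalin tumours and 8.19, 7.78 and 8.33 FPKM in control tumours (0.50, SE 0.11). KLF2, a shear-stress factor of endothelium, had 1.27, 1.57 and 1.03 FPKM in bufotalin tumours and 0.496, 0.643 and 0.224 FPKM in control tumours, 2.84-fold higher in bufotalin by the means (0.66, SE 0.14, adjusted p = 0.00144). For all 3 genes the bufotalin libraries stood above every control library. KLF13, KLF11 and KLF3 rose by less. KLF13 had 20.8, 17.2 and 18.8 FPKM in bufotalin tumours and 13.4, 12.5 and 15.99 FPKM in control tumours (0.42). KLF11, a TGF-beta responsive factor, had 19.4, 19.00 and 20.9 FPKM in bufotalin tumours and 16.9, 14.1 and 14.1 FPKM in control tumours (0.38). KLF3, a repressor, had 18.3, 17.2 and 19.5 FPKM in bufotalin tumours and 15.4, 15.1 and 14.4 FPKM in control tumours (0.27). The KLF3 call was lost without bufotalin replicate 1 or 3 and without any one control library.

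KLF17 (chromosome 1, 44118850 to 44135140), an embryonic factor that restrains epithelial-mesenchymal transition, had 0.707, 0.452 and 0.615 FPKM in bufotalin tumours, against 1.89, 1.67 and 1.64 FPKM in control tumours (-0.78, SE 0.11, limma adjusted p = 9.67e-05). Under quantile normalization it had -0.06 and was not called. KLF14, an imprinted regulator of fat tissue, was under the minimum for the test at 0.169, 0.110 and 0.171 FPKM in bufotalin tumours and 0.612, 0.818 and 0.680 FPKM in control tumours. KLF8 had at most 0.0486 FPKM in any library. From the 9 related SP genes only SP6, of tooth and skin, was in the table, and it fell (-0.81), though not under quantile normalization (-0.23).

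The AP-2 genes moved apart. TFAP2A (chromosome 6, 10393186 to 10419659), of neural crest and skin, had 14.5, 16.1 and 24.9 FPKM in bufotalin tumours, against 41.4, 35.7 and 25.8 FPKM in control tumours (-0.87, SE 0.23, limma adjusted p = 0.00564). The third library of each group came close to touching, at 24.9 FPKM in bufotalin and 25.8 FPKM in control. TFAP2C (chromosome 20, 56629306 to 56639283), of trophoblast and germ cells, had 20.1, 19.3 and 21.6 FPKM in bufotalin tumours and 16.6, 15.3 and 16.3 FPKM in control tumours (0.32, SE 0.10, adjusted p = 0.0153). Its call was lost without control replicate 2 (0.29). TFAP2C reached 1.39, 1.19 and 0.866 times the level of TFAP2A in bufotalin libraries, and 0.402, 0.429 and 0.630 times in control libraries.

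Further lists of regulators gave the surroundings of these families. Of 19 liver transcription factors outside the families, 6 were in the table and 5 were tested, with 4 higher and 1 lower. RXRA, the shared partner of hepatic nuclear receptors, rose to 44.6, 42.8 and 43.5 FPKM in bufotalin tumours, against 20.02, 18.6 and 20.5 FPKM in control tumours (1.11, SE 0.10, limma adjusted p = 1.003e-05). CEBPB (0.75) and ONECUT2 (0.71) rose as well, and CEBPA (0.35) did so except without control replicate 1. PPARA fell (-0.94), but not under quantile normalization (-0.36). Of 7 TLE corepressors, which FOX and RUNX proteins recruit, 3 rose and 2 fell, led by TLE2 (1.91 ± 0.0641 FPKM in bufotalin and 5.08 ± 0.463 FPKM in control tumours) and TLE1 (10.1 ± 1.41 FPKM in bufotalin and 4.64 ± 0.493 FPKM in control tumours, SD, n = 3 each). In a list of 44 genes from other developmental families, 4 of 8 tested rose and 3 fell. SALL4, an oncofetal factor of liver cancer, fell to 0.822, 0.981 and 1.08 FPKM in bufotalin tumours, against 3.52, 3.95 and 4.90 FPKM in control tumours (-1.38, SE 0.13). SNAI2 fell (-1.07) and ID2 rose (0.81). Over all 8 lists 26 of 43 tested genes rose and 14 fell, that is 60.5% and 32.6%. Over all tested genes the shares were 44.3% and 48.8%, and these stand beside the counts of each single list too.

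The small RNA libraries held 1869893 to 3339624 counts in the bufotalin group and 2034422 to 4197636 counts in the control group, so that a count of 0 allows up to 0.715 to 1.60 CPM for counting error alone. The depth of the total RNA libraries is unknown. The members added up to 544, 529 and 580 FPKM in bufotalin libraries, against 438, 421 and 402 FPKM in control libraries, or 0.448% to 0.508% and 0.391% to 0.418% of each library's sum over the table. Other cells could be sampled with the tumour. In a xenograft these would be host cells, while the values are for human genes on GRCh38. Whether the marker values below come from host reads or from the tumour cells themselves was not tested. All 7 fibroblast markers in the table, out of 11 on the list, fell, where 48.8% of all tested genes fell. Their sum was 23.9 to 29.7 FPKM in bufotalin tumours and 84.1 to 88.6 FPKM in control tumours, with none at 0. The 12 members that fell were FOXL1, FOXP2, TBX20, LHX6, SOX18, KLF17, TFAP2A and 5 HOX genes. FOXF2, of gut and liver mesenchyme, and FOXD1, of kidney stroma, rose (0.41 and 0.67). Quantile normalization ended the calls of those 5 HOX genes, SOX18, KLF17 and FOXF2. The leukocyte markers in the table were CSF1R, CD14 and ITGAM. Their sum was 4.61 to 6.82 FPKM in bufotalin and 3.18 to 3.53 FPKM in control tumours. CSF1R rose (0.46), and CD14 averaged 0.631 FPKM in bufotalin and 0.0313 FPKM in control tumours. ITGAM was listed at 0 in all bufotalin libraries and at 0.0703, 0.0254 and 0.0382 FPKM in control libraries. Of 11 hepatocyte and epithelial markers 3 were in the table, KRT8 being higher in bufotalin (0.55), so the liver identity of the tumours could not be checked from it. HBB, a red cell gene, had 13.4 FPKM in control replicate 3 and at most 0.552 FPKM in the other libraries. The part of these cells in the changes of the families was not tested.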

How the data were processed

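The total RNA tables held FPKM values deposited by the authors, per gene for mRNA and per transcript for noncoding RNA, for features selected as different by a rule that no source used here states. The small RNA table held read counts per mature miRNA and TPM values deposited by the authors, which equal the count scaled by the column total, and the TPM column was not used further. Per the submitters' processing notes, CASAVA 1.8, fastp, HISAT2 2.0.5, featureCounts 1.5.0-p3, DESeq2 1.20.0 and GRCh38 were used, with no role stated.

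Genes averaging 0.5 FPKM or more entered a limma 3.58.1 fit (eBayes with trend and robust options) of log2(FPKM + 1), and noncoding transcripts averaging 0.1 FPKM or more one of log2(FPKM + 0.1). For miRNA counts edgeR 4.0.16 was used (TMM, filterByExpr, robust quasi-likelihood F test), with DESeq2 1.42.0 as an alternative. Tests were two-sided at 0.05 after Benjamini-Hochberg adjustment over every tested feature, and the scripts were tested on simulated data. R 4.3.3, Python 3.11.15, numpy 2.4.6, pandas 2.3.3 and matplotlib 3.10.9 were used.

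Among 1737 ratios of FPKM values under 0.1 between libraries, no library pair had more than 9 equal to 3 decimals, so reads and depth were not recovered from FPKM. The miRNA counts of replicates differed with a chi-square of 219 to 522 per degree of freedom, so no library was a copy of another. Promoters and miRNA sequences came from RefSeq (GRCh38.p14), and all 53 symbols matched the gene reference. Members, gene lists and tests were chosen with earlier results of these data known. By rule, the largest rise, the largest fall and the most abundant member of each family, all members of families with 3 or fewer, up to 3 genes per list by smallest p and every tested miRNA arm were named. Other genes were picked with their values in view. A few genes that enter the counts are not reported here by name.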

Additional observations from a re-analysis of the deposited data

How the results depend on the processing

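Of the 39 members that passed, 26 (21 higher, 5 lower) kept their call under all 13 other settings, 12 lost it under at least 1, and 1 turned round under quantile normalization. Quantile normalization left 5 members called lower in place of 12. Over the tested members the median log2 fold change was 0.26 with no minimum, 0.44 with a pseudocount of 0.01, 0.43 with a pseudocount of 0.1, 0.46 after quantile normalization and 0.58 after scaling to equal medians, and 0.35 to 0.44 with 1 library left out. Leaving out 1 library gave 22 to 27 members higher and 12 lower each time. With 3 libraries per group, deviations from the group means cannot settle whether the replicate numbers pair the libraries. Same-numbered deviations correlated at -0.02, 0.03 and -0.05 for mRNA and 0.14, 0.03 and 0.37 for miRNA. Those with different numbers correlated at -0.04 to 0.06 for mRNA and -0.33 to 0.22 for miRNA. With a replicate block, 26 members were higher and 12 lower, and FOXO1 and TLE3 lost their call while EYA4 gained one. The fold change of hsa-miR-10b-3p, never called, was 0.026 with DESeq2, 0.054 with a replicate block and -0.32 to 0.41 with 1 library left out, and that of hsa-miR-10b-5p was -0.34 to 0.083 with 1 library left out. No HOX-cluster miRNA passed in any of 10 settings. The FOXP2 noncoding transcript had -2.88 to -1.12 with 1 library left out and passed only without control replicate 3. The causes were not tested. Of the 11 members under 0.5 FPKM, limma called 1 higher and 6 lower when no minimum was set, and what depth allows for FPKM is unknown. By the means, 3 of these 11 were higher in bufotalin and 8 lower. Among all 715 genes at that level, 189 were higher and 526 lower, so the members had the slant of the whole table.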
